A study of Mus musculus with 18 samples.

Results

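The genes described here encode the lipid kinases that make the phosphoinositides of the endo-lysosome membrane and the lysosomal calcium channels that respond to those lipids. They were chosen by name: Pikfyve, Fig4, Vac14, Pik3c3, Pik3r4, Mcoln1, Mcoln2, Tpcn1 and Tpcn2. All 9 were among the 11243 protein-coding genes of the count table. The study asked how lipopolysaccharide (LPS), a bacterial cell wall component sensed by TLR4, and the mTOR kinase change the mRNA supply and its translation in macrophages whose lysosomes enlarge on activation. RAW264.7 cells, an established mouse macrophage-like line and so a single transformed genetic background, were kept in vehicle (DMSO, called control), given 500 ng/mL LPS for 6 h (LPS), or first given torin1, which blocks the active site of mTOR, at 100 nM for 15 minutes and then LPS for 6 h in its presence (LPS+torin1). From each lysate, total mRNA and mRNA on heavy polysomes (polysome-associated mRNA) were sequenced in 3 independent experiments, giving 18 libraries. Torin1 without LPS was not analysed here, so its values are those of cells that also had LPS.

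Libraries held between 27800983 and 47725557 counts. The macrophage genes Ptprc, Itgam, Csf1r, Cd68, Adgre1, Lyz2, Cd14 and Tlr4 were present in every library, none below 82.7 CPM (a gene's counts scaled to a fixed normalized library size). Il1b, a cytokine gene induced by LPS, was between 0.548 and 4.71 CPM in control libraries and between 1157 and 4344 CPM in LPS libraries. Of the markers of other cell types, 1 of 12 was in the table, the neutrophil gene S100a8, at no more than 0.415 CPM in control libraries and no more than 7.74 CPM after LPS. Its part in the results was not tested. In bulk samples, fewer cells expressing a gene and less of its mRNA per cell cannot be told apart.

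The class III phosphoinositide 3-kinase VPS34 (Pik3c3), held by its regulatory subunit VPS15 (Pik3r4), makes phosphatidylinositol 3-phosphate on endosomes. PIKfyve converts this lipid to PI(3,5)P2, and works in a complex in which VAC14 is the scaffold and FIG4, a lipid phosphatase, is needed for its activity. PI(3,5)P2 opens the TRPML channels (Mcoln1 and Mcoln2) and the two-pore channels (Tpcn1 and Tpcn2), which let cations including calcium leave the endo-lysosome lumen. These lipids and channels are known for their roles in lysosome fission, tubulation and membrane traffic in macrophages.

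Promoter sequence was examined because Mcoln1, a known target of the lysosomal transcription factor TFEB, and Mcoln2 were both higher with LPS+torin1 than with LPS or control. Mcoln2 was already higher than control with LPS alone. TFEB binds sites built on the palindrome CACGTG. Promoters of 7 of the 9 genes, from 250 bases before to 50 after the gene start in RefSeq (build GRCm38.p6), were searched on both strands, and CACGTG was found in 3 of the 7, those of Mcoln1, Mcoln2 and Vac14. The promoter of Tpcn2, which was also higher with LPS+torin1, was searched and held none. Vac14 with LPS+torin1 was below control in both kinds of mRNA. Compared with LPS it was called higher in total mRNA only, a call that rested on experiment 1. Whether the sites bear on these changes was not tested. Among all 32851 promoters of the same length, 7.15% held it. The longer palindrome TCACGTGA, which contains CACGTG, was in 2 of the 7 and in 0.974% of all promoters. The windows around each match follow, 5′ to 3′ on the plus strand, with CACGTG in capitals.
Mcoln1, chr8:3500439-3500462: cgcgcttgtCACGTGttcagttca
Mcoln1, chr8:3500465-3500488: cgccccgctCACGTGaccgcggcg
Mcoln2, chr3:146150093-146150116: ctgagctcaCACGTGgaccccatt
Vac14, chr8:110618589-110618612: tcgcggcgtCACGTGacctgagta
The capitals began 71 and 45 bases before the RefSeq start of Mcoln1, 72 bases before that of Mcoln2, and 31 bases after that of Vac14. The gene positions given below come from another annotation, GENCODE. By those, the Mcoln2 match and the nearer Mcoln1 match lie inside the gene. The match with TCACGTGA at Mcoln1 is the window nearer the start. A match of letters is a description of the sequence, and binding was not measured.

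Mean levels in total mRNA of control cells, in CPM per kb of exon, were 12.1 ± 0.678 (SD, n = 3) for Vac14, 11.1 ± 0.584 for Pik3c3, 10.7 ± 1.13 for Tpcn1, 9.46 ± 0.538 for Fig4 and 7.77 ± 0.427 for Pikfyve. Lower levels were found for Tpcn2 (4.0 ± 0.23), Mcoln1 (3.96 ± 0.0999), Pik3r4 (2.83 ± 0.0859) and Mcoln2 (1.74 ± 1.83). Within this order, the steps from Vac14 to Pik3c3, from Pik3c3 to Tpcn1, from Tpcn1 to Fig4, from Tpcn2 to Mcoln1 and from Pik3r4 to Mcoln2 were smaller than the sum of the neighbours' SDs. After LPS, Mcoln2 had the highest mean of the 9 (25.1 ± 17.3), followed by Pikfyve (9.19 ± 1.17), and Tpcn1 was at 4.16 ± 1.54 CPM per kb. With LPS+torin1, Mcoln2 stood at 75.7 ± 44.6, while the next gene, Pik3c3, was at 10.3 ± 0.831. Mcoln2 in experiment 1 was far below its level in the other experiments in all 6 groups, and its SDs are correspondingly wide. After LPS in that experiment Mcoln2 was at 5.67 CPM per kb in total mRNA, below Pikfyve at 10.5. The order also depends on the exon lengths. In CPM of total mRNA after LPS, the mean of Pikfyve (176) was above that of Mcoln2 (82.4).

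**Figure D1:**
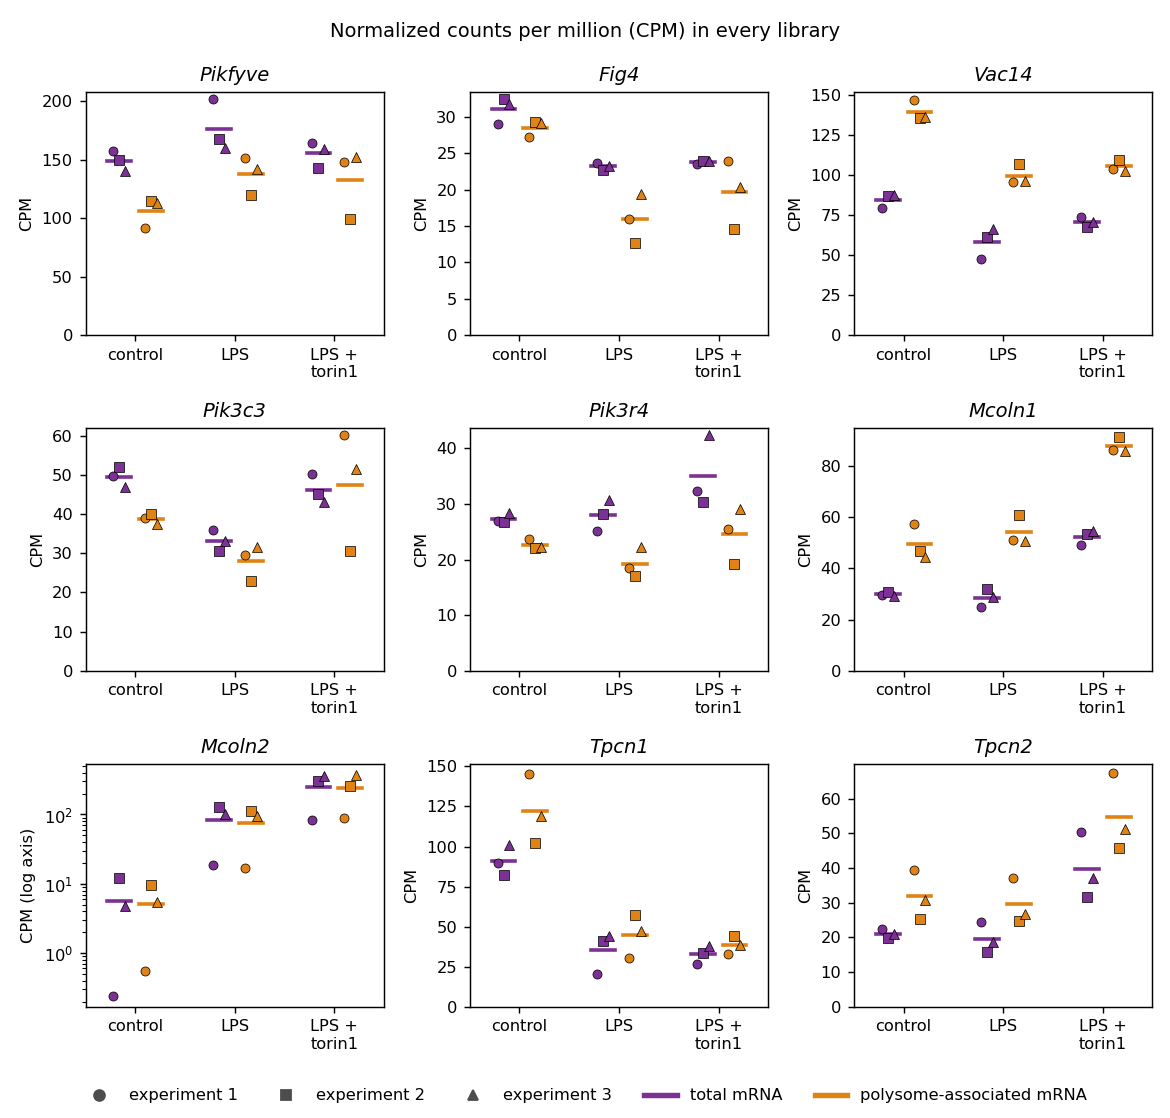
Normalized CPM of each gene in all 18 libraries (y axis, log scale for Mcoln2 and linear from 0 for the others) by treatment (x axis), with a symbol for each experiment, a colour for each kind of mRNA and a line at each group's mean. Tpcn1 drops with LPS and stays low with LPS+torin1, Mcoln1 and Tpcn2 are raised in all LPS+torin1 libraries, and Mcoln2 climbs from at most 12.2 CPM in control to at least 82.4 CPM with LPS+torin1.

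LPS was compared with control first. In total mRNA, 6 of the 9 genes passed the test (edgeR, adjusted p of at most 0.25 over all genes), 2 higher and 4 lower, where 66.5% of all genes passed. In polysome-associated mRNA it was again 6, 2 higher and 4 lower, against 55.1% of all genes. Mcoln2 and Pikfyve rose in both, and Tpcn1, Pik3c3, Vac14 and Fig4 fell in both. The median log2 change of the 9 genes was -0.10 in total mRNA, beside -0.02 over all genes, and -0.23 in polysome-associated mRNA, beside -0.03. LPS+torin1 was then compared with LPS. In total mRNA, 7 genes passed, 6 higher and 1 lower, against 53.7% of all genes, and in polysome-associated mRNA 5 passed, all higher, against 38.4%. The medians were 0.32 and 0.38, beside 0.00 over all genes in both. Without experiment 3 these counts were 4 and 2, where 3959 and 1187 of all genes passed, and without experiment 1 the second was 3. Both comparisons use the same LPS libraries. The comparison of LPS+torin1 with control called 7 genes in total mRNA (4 higher, 3 lower, against 66.7% of all genes) and 7 in polysome-associated mRNA (4 higher, 3 lower, against 58.2%, and 4 without experiment 3). Mcoln1, Mcoln2 and Tpcn2 were higher and Tpcn1, Fig4 and Vac14 lower in both, joined by a higher Pik3r4 in total mRNA (log2 0.36, SE 0.14, adjusted p = 0.0502) and a higher Pikfyve on polysomes (log2 0.34, SE 0.18, adjusted p = 0.170). Of these calls, Vac14 was lost in total mRNA without experiment 2 or 3 (adjusted p = 0.379 and 0.314) and on polysomes without experiment 1 or 3 (0.270 and 0.302), Fig4 on polysomes without experiment 3 (0.281), and Pik3r4 without experiment 3 (0.258). That of Pikfyve was lost without experiment 1 (log2 0.17, adjusted p = 0.677) or 3 (0.504). So large a share of all genes passed these tests that the counts alone say little of these 9, and the size and course of each gene are given below.

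**Figure D2:**
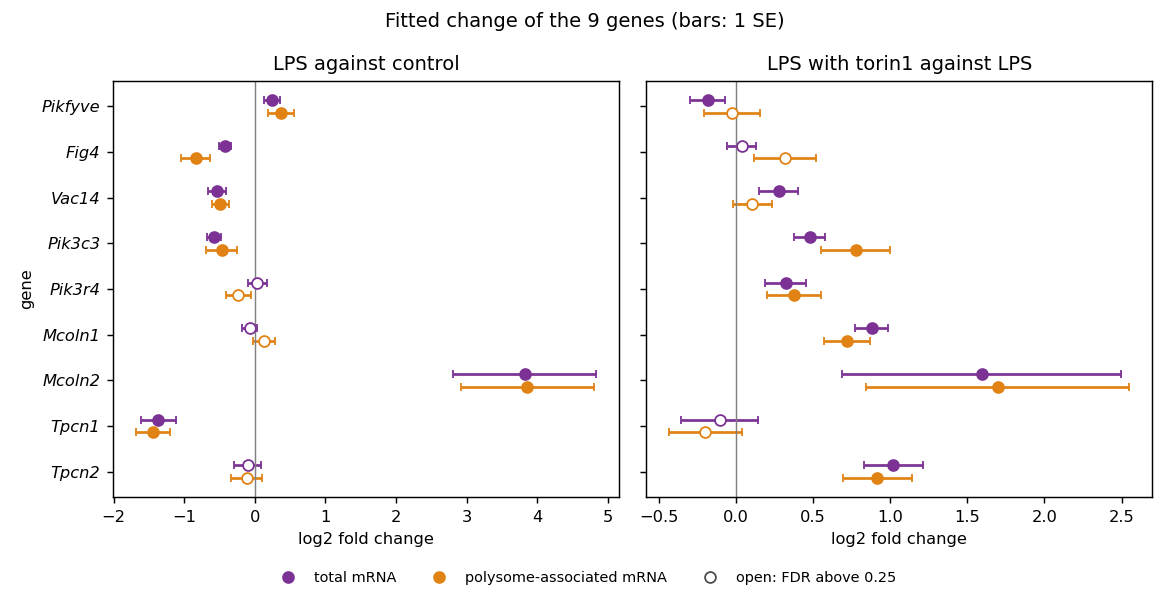
Fitted log2 fold change (x axis) of each gene (y axis) for LPS against control and for LPS+torin1 against LPS, in total and polysome-associated mRNA, with bars of 1 SE and open points where the adjusted p exceeded 0.25. Changes in both kinds of mRNA lie close together for most genes, and those of Mcoln2 have the widest errors.

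Of the class III kinase, the catalytic subunit gene Pik3c3 (chr18:30272747-30348126, plus strand, GRCm38) moved with both treatments. In total mRNA it was at 49.8, 52.0 and 46.8 CPM in control, 35.9, 30.5 and 33.0 CPM after LPS, and 50.3, 45.0 and 43.1 CPM with LPS+torin1, in experiments 1, 2 and 3. LPS libraries lay below all others, and the LPS+torin1 values overlapped those of control. Pik3c3 fell 1.49-fold with LPS (log2 -0.58, SE 0.10, adjusted p = 0.00102, edgeR) and was 1.39-fold higher with LPS+torin1 than with LPS (log2 0.48, SE 0.10, adjusted p = 0.00679, edgeR). LPS+torin1 and control differed by -0.10 on the log2 scale (95% interval -0.33 to 0.12). In polysome-associated mRNA the values were 39.1, 39.9 and 37.5 CPM in control, 29.6, 23.02 and 31.6 CPM after LPS, and 60.1, 30.7 and 51.4 CPM with LPS+torin1. Experiment 2 was the lowest of its group after LPS and with LPS+torin1. There the fall with LPS was 1.38-fold (log2 -0.47, SE 0.22, adjusted p = 0.132) and the rise from LPS to LPS+torin1 1.71-fold (log2 0.78, SE 0.22, adjusted p = 0.0425). Neither polysome call held without experiment 1 (adjusted p = 0.318 and 0.321) or without experiment 3 (0.269 and 0.267).

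Pik3r4 (chr9:105642978-105687657, plus strand), the gene of the regulatory subunit, did not pass the test with LPS. Its total mRNA was at 26.9, 26.8 and 28.3 CPM in control and at 25.2, 28.2 and 30.6 CPM after LPS, and the groups overlapped (log2 0.04, 95% interval -0.26 to 0.34, adjusted p = 0.849, edgeR). With LPS+torin1 it was at 32.3, 30.4 and 42.4 CPM, experiment 3 standing highest, and was 1.25-fold higher than with LPS (log2 0.32, SE 0.14, adjusted p = 0.101). Polysome-associated Pik3r4 ranged from 17.03 to 29.1 CPM over all 9 libraries, with a rise from LPS to LPS+torin1 of 1.297-fold (log2 0.38, SE 0.18, adjusted p = 0.184). Without experiment 1 or 3 neither rise passed (adjusted p = 0.259 and 0.321 in total, 0.566 and 0.521 in polysome-associated mRNA).

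Within the PIKfyve complex, the kinase gene rose a little with LPS while the genes of the scaffold and the phosphatase fell. Pikfyve (chr1:65186683-65278695, plus strand) was at 157, 150 and 141 CPM in control, 202, 168 and 160 CPM after LPS, and 164, 143 and 159 CPM with LPS+torin1 in total mRNA. The LPS values lay above those of control, the nearest pair being 157 and 160 CPM. The rise with LPS was 1.18-fold (log2 0.24, SE 0.11, adjusted p = 0.105, edgeR), and the 95% interval of this one change ran from -0.01 to 0.49. On polysomes Pikfyve was at 91.6, 114.7 and 112.7 CPM in control and 151.4, 119.5 and 142.3 CPM after LPS, 1.29-fold higher (log2 0.37, SE 0.18, adjusted p = 0.146). That call was lost without experiment 1 (adjusted p = 0.652) or experiment 3 (0.361). Against LPS, LPS+torin1 gave a total mRNA 1.14-fold lower (log2 -0.18, SE 0.11, adjusted p = 0.249), just under the threshold, and this call was lost when any 1 experiment was left out (adjusted p 0.306 to 0.505). On polysomes LPS+torin1 and LPS differed by -0.03 (95% interval -0.43 to 0.37).

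Vac14 (chr8:110618585-110720398, plus strand) was at 79.1, 86.7 and 87.7 CPM in total mRNA of control cells, 47.4, 61.2 and 66.4 CPM after LPS, and 73.7, 67.7 and 70.4 CPM with LPS+torin1. The 3 groups did not overlap, with LPS lowest and control highest. It fell 1.45-fold with LPS (log2 -0.53, SE 0.12, adjusted p = 0.00517, edgeR). From LPS to LPS+torin1 it rose 1.21-fold (log2 0.28, SE 0.12, adjusted p = 0.121), a call that rested on experiment 1, where the LPS library was lowest (log2 0.11 and adjusted p = 0.483 without that experiment). Polysome-associated Vac14 was more abundant, at 146.7, 135.4 and 136.3 CPM in control, 95.9, 106.6 and 96.2 CPM after LPS, and 103.8, 109.5 and 102.6 CPM with LPS+torin1. There the fall with LPS was 1.40-fold (log2 -0.49, SE 0.12, adjusted p = 0.0129), and LPS+torin1 differed from LPS by 0.11 (95% interval -0.17 to 0.38, adjusted p = 0.618).

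Fig4 (chr10:41188172-41303260, minus strand) fell with LPS in every experiment. Total mRNA was at 29.1, 32.4 and 31.7 CPM in control, 23.6, 22.8 and 23.2 CPM after LPS, and 23.5, 23.9 and 23.9 CPM with LPS+torin1, so that both treated groups lay below control and were close to each other. The fall with LPS was 1.34-fold (log2 -0.42, SE 0.09, adjusted p = 0.00357, edgeR), and LPS+torin1 differed from LPS by 0.04 (95% interval -0.17 to 0.24). In polysome-associated mRNA the values were 27.2, 29.2 and 29.1 CPM in control, 15.98, 12.7 and 19.4 CPM after LPS, and 23.9, 14.6 and 20.4 CPM with LPS+torin1. Here LPS lowered Fig4 1.79-fold (log2 -0.84, SE 0.20, adjusted p = 0.00990). LPS+torin1 was above LPS in 3 of 3 experiments, by 0.58, 0.20 and 0.08 on the log2 scale, but the fitted difference did not pass the test (log2 0.32, SE 0.20, adjusted p = 0.330). It passed when the experiments were paired by a block (log2 0.31, SE 0.17, adjusted p = 0.227).

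Of the TRPML channel genes, Mcoln2 passed the test with LPS and Mcoln1 did not. The difference between them was not tested, but the 95% intervals of their changes in total mRNA, 1.58 to 6.06 and -0.31 to 0.16, did not overlap. Mcoln1 (chr8:3500457-3515232, plus strand) encodes TRPML1, the main calcium channel of late endosomes and lysosomes, which is widely expressed. Its total mRNA was at 29.8, 30.8 and 29.3 CPM in control, 24.8, 31.8 and 28.7 CPM after LPS, and 49.2, 53.3 and 54.5 CPM with LPS+torin1. Control and LPS overlapped, and all LPS+torin1 libraries lay above both. LPS changed it by -0.07 on the log2 scale (adjusted p = 0.604, edgeR), whereas LPS+torin1 raised it 1.84-fold over LPS (log2 0.88, SE 0.11, adjusted p = 0.000414). The course was alike on polysomes, where the values were 57.2, 46.8 and 44.5 CPM in control, 51.1, 60.8 and 50.6 CPM after LPS, and 86.1, 91.5 and 86.0 CPM with LPS+torin1. The rise there was 1.65-fold (log2 0.72, SE 0.15, adjusted p = 0.0117).

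Mcoln2 (chr3:146149833-146195513, plus strand) encodes TRPML2, a channel of recycling endosomes and lysosomes known for its role in chemokine release by macrophages. In total mRNA it was at 0.243, 12.2 and 4.75 CPM in control, 18.7, 127.6 and 100.99 CPM after LPS, and 82.4, 305.1 and 358.8 CPM with LPS+torin1. In experiment 1 it was lowest in every group, the control library holding 8 reads, yet within each experiment it rose at both steps. LPS against control, by experiment, gave log2 differences of 6.26, 3.39 and 4.41, and LPS+torin1 against LPS gave 2.14, 1.26 and 1.83. The fitted rise with LPS was 14.2-fold (log2 3.82, SE 1.01, adjusted p = 0.0105, edgeR), and between 3.53 and 4.57 on the log2 scale with 1 experiment left out. The fitted rise from LPS to LPS+torin1 was 3.01-fold (log2 1.59, SE 0.90, adjusted p = 0.213). The groups overlapped, since LPS+torin1 in experiment 1 was below LPS in experiments 2 and 3. This second call was lost with DESeq2 (adjusted p = 0.335), without experiment 2 (0.264) and without experiment 3 (0.536). It held, with a lower adjusted p given further below, when the experiments were paired by a block.

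Polysome-associated Mcoln2 was at 0.546, 9.51 and 5.47 CPM in control, 16.7, 111.96 and 95.7 CPM after LPS, and 88.7, 256.1 and 372.1 CPM with LPS+torin1. Experiment 1 was again lowest throughout. It rose 14.5-fold with LPS (log2 3.86, SE 0.94, adjusted p = 0.00988, edgeR). From LPS to LPS+torin1 the rise was 3.25-fold (log2 1.70, SE 0.85, adjusted p = 0.210), lost with DESeq2 (adjusted p = 0.282) and without experiment 3 (0.576). Within experiments 1, 2 and 3 this rise was 2.41, 1.19 and 1.96 on the log2 scale. The call held when the experiments were paired by a block. Compared with control, LPS+torin1 raised Mcoln2 by 5.42 (SE 1.08, adjusted p = 0.00209) in total and by 5.55 (SE 1.02, adjusted p = 0.00177) in polysome-associated mRNA on the log2 scale.

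Of the two-pore channel genes, Tpcn1 fell with LPS and Tpcn2 did not pass the test. Their difference was not tested, and the 95% intervals in total mRNA were -1.92 to -0.81 and -0.53 to 0.32. Tpcn1 (chr5:120534153-120588673, minus strand) encodes TPC1, a channel of early and recycling endosomes as well as lysosomes, and its fitted fall with LPS was the largest of the 9 genes in both kinds of mRNA. Its total mRNA was at 89.6, 82.1 and 101.05 CPM in control, 20.3, 41.0 and 44.3 CPM after LPS, and 26.9, 33.4 and 38.0 CPM with LPS+torin1. Every treated library lay below every control library, and experiment 1 was lowest in both treated groups. The fall with LPS was 2.58-fold (log2 -1.37, SE 0.25, adjusted p = 0.00133, edgeR), and the log2 change was -1.09 without experiment 1. In polysome-associated mRNA Tpcn1 went from 145.3, 102.2 and 119.3 CPM in control to 30.7, 57.0 and 47.1 CPM after LPS, 2.72-fold lower (log2 -1.44, SE 0.24, adjusted p = 0.00111), and was at 32.7, 44.2 and 38.6 CPM with LPS+torin1. LPS+torin1 and LPS differed by -0.11 in total mRNA (95% interval -0.66 to 0.45) and by -0.20 in polysome-associated mRNA (-0.72 to 0.32), and neither passed the test.

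Tpcn2 (chr7:145186524-145284011, minus strand) encodes TPC2, a channel of late endosomes and lysosomes. Its total mRNA was at 22.3, 19.9 and 20.9 CPM in control, 24.4, 15.8 and 18.5 CPM after LPS, and 50.3, 31.6 and 37.1 CPM with LPS+torin1. As for Mcoln1, control and LPS overlapped and all LPS+torin1 libraries stood above both. LPS changed it by -0.10 on the log2 scale (adjusted p = 0.691, edgeR), and LPS+torin1 raised it 2.03-fold over LPS (log2 1.02, SE 0.19, adjusted p = 0.00380), by 1.04, 1.00 and 1.00 within the experiments. In polysome-associated mRNA it was at 39.5, 25.3 and 30.9 CPM in control, 37.2, 24.6 and 26.7 CPM after LPS, and 67.4, 45.7 and 51.2 CPM with LPS+torin1. The rise there was 1.89-fold (log2 0.92, SE 0.22, adjusted p = 0.0231). The calls of Mcoln1 and Tpcn2 in this comparison held in both kinds of mRNA with each experiment left out in turn.

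Set against each other per kb of exon, the channels of each pair exchanged places. Tpcn1 over Tpcn2 in total mRNA was 2.50, 2.56 and 3.00 in control, 0.516, 1.61 and 1.49 after LPS, and 0.332, 0.655 and 0.636 with LPS+torin1. Tpcn1 was thus the more abundant in all control libraries and the less abundant in all LPS+torin1 libraries, with LPS libraries on both sides. On polysomes the ratio ranged from 2.28 to 2.51, from 0.512 to 1.44 and from 0.302 to 0.5998 in the same groups. Mcoln2 over Mcoln1 in total mRNA was 0.0188, 0.909 and 0.373 in control, 1.73, 9.22 and 8.08 after LPS, and 3.85, 13.2 and 15.1 with LPS+torin1. TRPML1 mRNA was therefore the more abundant in each control library and TRPML2 mRNA in each treated library of total mRNA, while on polysomes the LPS library of experiment 1 was still at 0.749. These ratios use all exons of each gene and do not tell isoforms apart, and they carry no test. Where they cross 1 depends on the exon lengths. In CPM of total mRNA, Tpcn1 was still above Tpcn2 with LPS+torin1 in experiments 2 (33.4 against 31.6) and 3 (38.0 against 37.1). On polysomes it was below Tpcn2 in every LPS+torin1 library in CPM too. After LPS in experiment 1, Mcoln2 was below Mcoln1 in total mRNA (18.7 against 24.8 CPM).

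**Figure D3:**
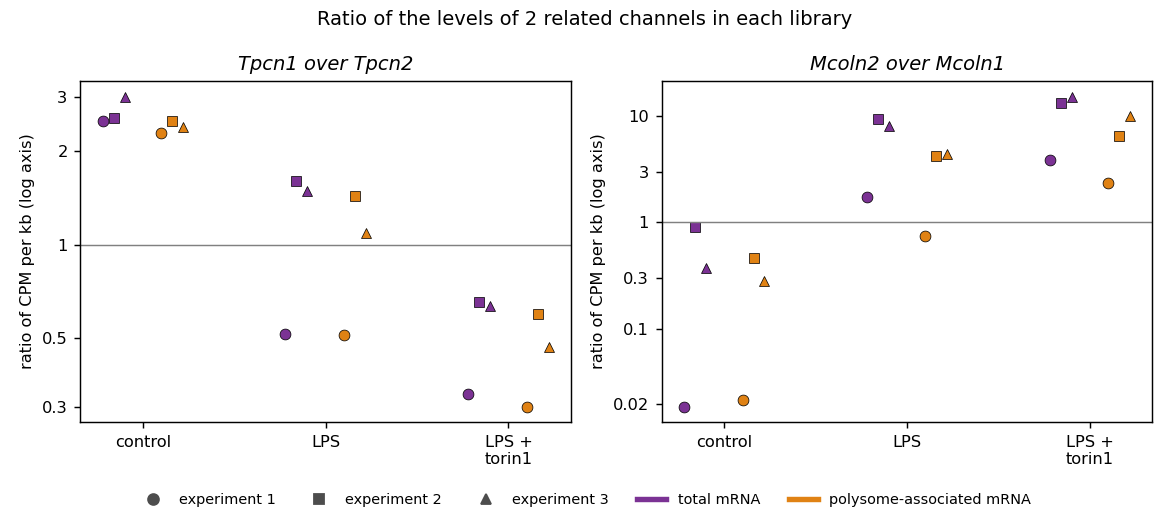
Ratio of CPM per kb of exon (y axis, log scale, line at 1) of Tpcn1 over Tpcn2 and of Mcoln2 over Mcoln1 in each of the 18 libraries, by treatment (x axis), with symbols for experiments and colours for the kind of mRNA. The first ratio is at least 2.28 in control and at most 0.655 with LPS+torin1, and the second is at most 0.909 in control and at least 2.37 with LPS+torin1, with experiment 1 lowest in each LPS and LPS+torin1 group.

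The share of an mRNA on heavy polysomes differed among the genes before treatment. In control cells 7 of 9 genes differed between polysome-associated and total mRNA, 4 higher and 3 lower, against 69.6% of all genes. These values are relative to the average mRNA. Mcoln1 (log2 0.73, SE 0.12, adjusted p = 0.000276, edgeR), Vac14 (0.72, SE 0.12, adjusted p = 0.000213), Tpcn2 (0.60, SE 0.22, adjusted p = 0.0334) and Tpcn1 (0.43, SE 0.25, adjusted p = 0.174) were higher on polysomes. Pikfyve (-0.49, SE 0.16, adjusted p = 0.0177), Pik3c3 (-0.35, SE 0.18, adjusted p = 0.121) and Pik3r4 (-0.27, SE 0.16, adjusted p = 0.166) were lower. Fig4 and Mcoln2 did not pass the test. The calls of Pik3c3 and Pik3r4 were lost without experiment 1 (adjusted p = 0.278 and 0.329) or 3 (0.316 and 0.322), and that of Tpcn1 without experiment 3 (0.277). All 9 lysates, treated or not, had Vac14, Mcoln1, Tpcn1 and Tpcn2 higher on polysomes than in total mRNA and Pikfyve and Pik3r4 lower. How many of all genes kept 1 direction in every lysate was not counted, so this is no trait of these genes alone.

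Translation efficiency, the change on polysomes beyond that in total mRNA, was called for none of the 9 genes in either comparison. Nor was any of the 11243 genes called (0% at an adjusted p of at most 0.25 and a fold of at least 1.2, edgeR). In this fit 44 genes had an unadjusted p under 0.05 for LPS and 110 for LPS+torin1 against LPS. Both counts are below the share of 0.05 of all genes that a calibrated test gives where nothing changes. The fit does not pair the libraries of a lysate and was too strict here. The lack of calls therefore cannot show that translation was unchanged. DESeq2 called 1 and 7 genes, and edgeR with the lysate as a block called 0 and 25, none of them among these 9. Fig4 under LPS had the lowest unadjusted p of the 9 (log2 -0.41, 95% interval -0.90 to 0.07, unadjusted p = 0.0899, edgeR). Its polysome-to-total log2 ratio was -0.09, -0.15 and -0.12 in control and -0.57, -0.84 and -0.26 after LPS, lower in 3 of 3 experiments, and 0.02, -0.71 and -0.23 with LPS+torin1. Pik3r4 was also lower with LPS in 3 of 3 experiments, at -0.19, -0.28 and -0.35 in control and -0.45, -0.73 and -0.46 after LPS. Mcoln1 was higher in 3 of 3, at 0.94, 0.61 and 0.61 in control and 1.04, 0.93 and 0.82 after LPS. Neither passed the test (unadjusted p = 0.255 and 0.247, edgeR). For each of the other members the direction with LPS differed among experiments. How many of all genes moved 1 way in 3 of 3 was not counted, so these directions carry no weight as a result. For Mcoln1 the intervals were -0.16 to 0.56 with LPS and -0.54 to 0.18 for LPS+torin1 against LPS. For Mcoln2 they were -2.95 to 3.00 and -2.81 to 2.97 in this fit, which does not pair the libraries of a lysate. With the lysate as a block, its changes were -0.15 (SE 0.21) and 0.11 (SE 0.18), and neither passed the test.

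**Figure D4:**
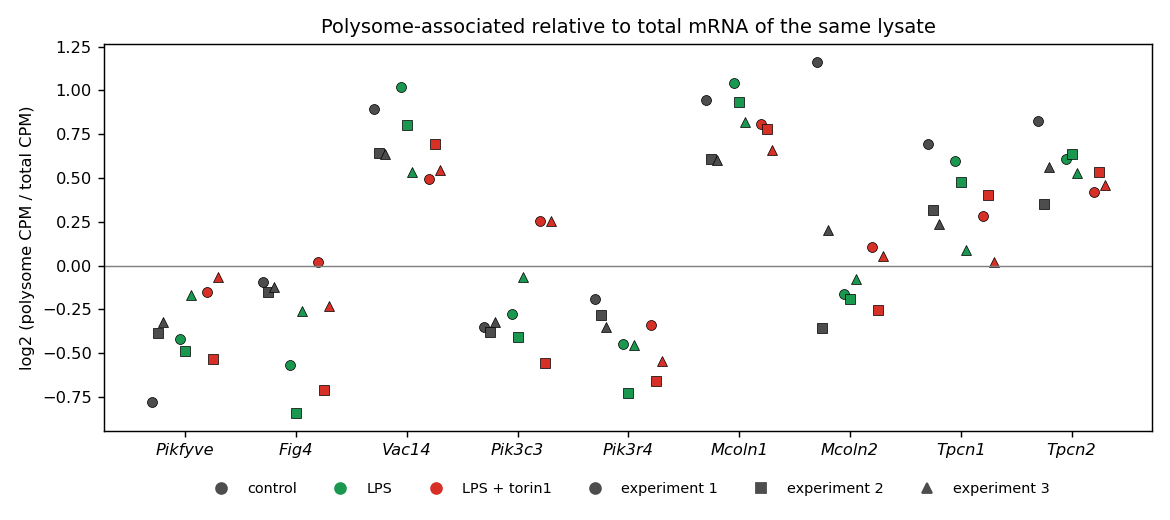
Log2 ratio of polysome-associated to total CPM in each lysate (y axis, line at 0) for the 9 genes (x axis), with a colour for each treatment and a symbol for each experiment. Vac14, Mcoln1, Tpcn1 and Tpcn2 lie above 0 in all 9 lysates and Pikfyve and Pik3r4 below, and the 3 treatments overlap for most genes.

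Around these 9 genes, 37 others of the same lipids and channels were listed by role, and 36 were in the table (Mcoln3, the third TRPML gene, was not analysed here). With LPS, 27 of 36 passed in total mRNA (18 higher, 9 lower) and 23 in polysome-associated mRNA (16 higher, 7 lower), where 66.5% and 55.1% of all genes passed. With LPS+torin1 against LPS, 24 (17 higher, 7 lower) and 16 (11 higher, 5 lower) passed, where 53.7% and 38.4% of all genes did. The counts by role that follow are to be read against the same shares of all genes. The median log2 changes in total mRNA were 0.20 and 0.14, beside -0.02 and 0.00 over all genes. Myotubularins are phosphatases that remove the 3-phosphate made by VPS34, along with inactive partners of the family. Of 11, LPS raised 5 and lowered 1 in total mRNA. Mtmr7 rose most, from at most 2.35 CPM in total mRNA of control to at least 15.7 CPM after LPS (log2 3.52, SE 0.26, adjusted p = 4.09e-06, edgeR), and Mtmr14 rose 2.25-fold (log2 1.17, SE 0.13, adjusted p = 6.25e-05). Mtmr4 fell 2.05-fold (log2 -1.04, SE 0.09, adjusted p = 1.5e-05).

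Of the 7 other endo-lysosomal channels and exchangers, LPS raised 5 and lowered 2 in both kinds of mRNA. The chloride-proton exchanger gene Clcn5 was 1.83-fold higher in total mRNA (log2 0.87, SE 0.10, adjusted p = 5.94e-05, edgeR) and P2rx4, an ATP-gated cation channel, 2.13-fold higher on polysomes (log2 1.09, SE 0.14, adjusted p = 0.000261). Ostm1, the partner subunit of the lysosomal exchanger ClC-7, fell 1.43-fold in total mRNA (adjusted p = 0.00105). LPS+torin1 against LPS raised 4 of the 7 in both kinds of mRNA and lowered 1 in total mRNA, Clcn3 (log2 -0.34, SE 0.12), which is named here after its value was seen. Clcn7, which encodes ClC-7, went from 60.1, 74.6 and 72.0 CPM with LPS to 149, 171 and 199 CPM with LPS+torin1 in total mRNA, 2.51-fold higher (log2 1.33, SE 0.15, adjusted p = 0.000251), and was 2.35-fold higher on polysomes (log2 1.23, SE 0.14, adjusted p = 0.000819).

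Of 5 partners of VPS34, LPS raised 1 and lowered 2 in each kind of mRNA, and Atg14 was among those lowered on polysomes only. Atg14, which directs VPS34 to autophagosome formation, fell 1.60-fold on polysomes with LPS (log2 -0.68, SE 0.17, adjusted p = 0.00959, edgeR) but did not pass in total mRNA (log2 -0.19). With LPS+torin1 against LPS it rose 2.02-fold in total mRNA (log2 1.02, SE 0.14, adjusted p = 0.000751) and 2.27-fold on polysomes (log2 1.18, SE 0.17, adjusted p = 0.00192). Of 6 proteins that bind these phosphoinositides, LPS raised 4 and lowered 1 in both kinds of mRNA. The one that fell was Wipi1, an autophagy protein at no more than 1.07 CPM in any control library (log2 -1.06 on polysomes, SE 0.33, adjusted p = 0.0295). LPS+torin1 against LPS raised Wdr45, of the same protein family, 2.38-fold in total mRNA (log2 1.25, SE 0.20, adjusted p = 0.00158) and 2.29-fold on polysomes (log2 1.19, SE 0.21, adjusted p = 0.00593), and lowered Wdr45b 1.34-fold (adjusted p = 0.00760) and 1.26-fold (adjusted p = 0.145).

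Of 7 calcium sensors and effectors, LPS raised 3 and lowered 3 in total mRNA and raised 2 and lowered 1 on polysomes. Ppp3ca, a catalytic subunit of calcineurin, fell 1.56-fold in total mRNA (log2 -0.64, SE 0.11, adjusted p = 0.000827, edgeR). Lsm12, which links the second messenger NAADP to two-pore channels, was 1.53-fold lower with LPS+torin1 than with LPS in both total (log2 -0.61, SE 0.12, adjusted p = 0.00516) and polysome-associated mRNA (log2 -0.61, SE 0.14, adjusted p = 0.0191). In that comparison the log2 level decreased by 0.38 for Mtmr1 in total mRNA (SE 0.11, adjusted p = 0.0293) and by 0.39 for Mtmr7 on polysomes (SE 0.19, adjusted p = 0.193).

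**Figure D5:**
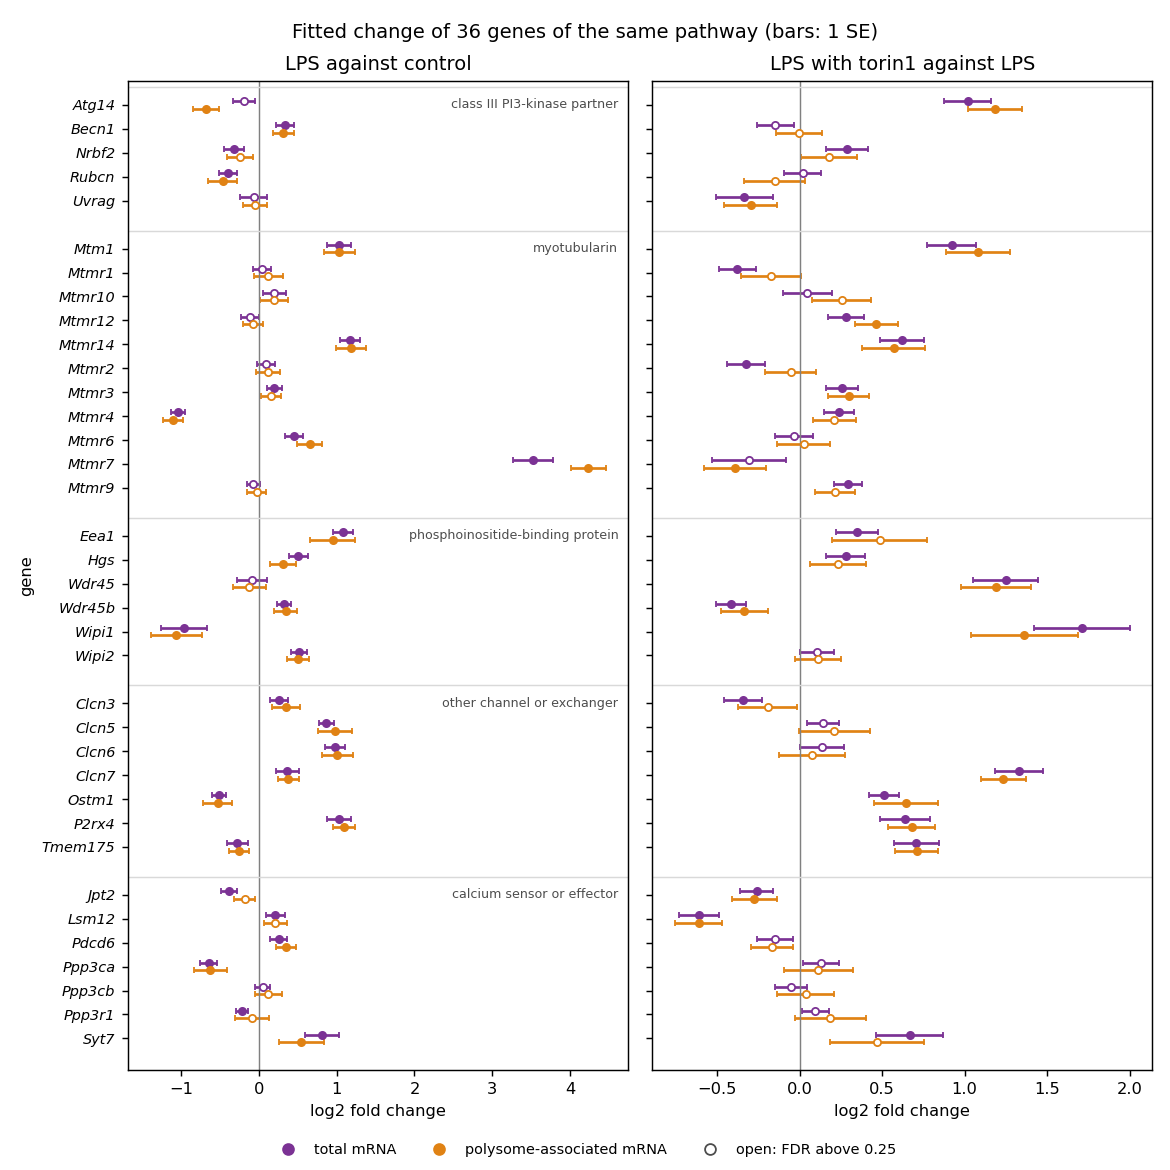
Fitted log2 fold change (x axis) of 36 further genes of the same lipids and channels (y axis, grouped by role) for LPS against control and LPS+torin1 against LPS, in total and polysome-associated mRNA, with bars of 1 SE and open points where the adjusted p exceeded 0.25. Mtmr7 stands far to the right with LPS, at 3.52 in total and 4.23 in polysome-associated mRNA, and Clcn7, Atg14, Wdr45 and Wipi1 are the highest with LPS+torin1.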

How the data were processed

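The authors deposited raw counts per gene, 1 column per library. Per the study's methods, ribosomal RNA-depleted stranded TruSeq libraries were sequenced in pairs, aligned to GRCm38 with Hisat2, counted with featureCounts on Ensembl genes within a nextflow pipeline, restricted to protein-coding genes, and genes with a count of 0 in any library were removed, so no gene absent from a group could be tested. Whether strand was used in counting is not given in the sources used here. Genes annotated over 4 of the 9 members shared 0 exon bases with them.

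Counts were fitted with edgeR 4.0.16 (TMM, quasi-likelihood F test) in R 4.3.3, over 9 libraries for each kind of mRNA and over 18 for translation efficiency, with the Benjamini-Hochberg adjustment over 11243 genes and the thresholds of the study's methods (0.25, and a fold of 1.2 for translation efficiency). SE and 95% intervals are those of the fit, and intervals are not adjusted for multiple tests. CPM were TMM-normalized over 18 libraries, and exon lengths and positions came from GENCODE annotation of GRCm38. DESeq2 1.42.0 and other models were alternatives. The fits were tested on simulated counts with large changes and no experiment or lysate effect. Such a test does not show how they behave on the paired libraries here. In total mRNA, all 9 pairs of same-numbered libraries deviated together from their group means (r 0.147 to 0.45), so the numbers pair those libraries. In polysome-associated mRNA this held for the 3 pairs of LPS with LPS+torin1 (r 0.517 to 0.77). For the pairs with control it held only in experiment 3 (r 0.415 with LPS and 0.377 with LPS+torin1). Total and polysome-associated libraries of 1 number and treatment came from 1 lysate. No 2 libraries of a group were alike within sampling noise.

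All 9 members were named. Of the pathway list, up to 3 genes higher and 3 lower with the lowest p in each of 4 comparisons (LPS against control and LPS+torin1 against LPS, in both kinds of mRNA) were named. The members and lists were chosen with earlier results of these data known.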

Additional observations from a re-analysis of the deposited data

How the results depend on the processing

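Of 858 refits of single genes, 780 left direction and call as they were, 52 lost a call, 8 gained one and 18 changed sign. The 52 were of changes whose adjusted p was at least 0.0361 to begin with, and the losses from leaving out an experiment stand beside the results. With 1 experiment left out, the number of the 9 genes called was 6 each time for LPS in total mRNA, 4 to 6 for LPS on polysomes, 4 to 5 and 2 to 6 for LPS+torin1 against LPS in total and polysome-associated mRNA, 5 to 7 and 4 to 9 for LPS+torin1 against control, and 4 to 7 for polysome-associated against total mRNA. Over all 11243 genes, LPS in total mRNA called 6238 to 7062 with 1 experiment left out. LPS+torin1 against control in total mRNA called 6224 to 7008, and polysome-associated against total mRNA 6162 to 7860. The other ranges over all genes are given below. At an adjusted p of at most 0.05, LPS+torin1 against LPS called 3 genes in each kind of mRNA, where 3279 and 1557 of all genes passed. Polysome-associated against total mRNA in control cells called 4 of the 9, where 5521 of all genes passed.

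On polysomes, same-numbered libraries were paired for LPS and LPS+torin1. Pairs with control correlated over 0.1 in experiment 3 but not in experiments 1 and 2 (5 of 9 pairs in all did, lowest r -0.101). In experiments 1 and 2, pairing of polysome libraries with control was thus not seen in these correlations. That does not show they were unpaired, as total mRNA of the same lysates was paired. With the experiment as a replicate block, the number of the 9 genes called was 6 for LPS in total mRNA, 7 for LPS on polysomes, 7 and 6 for LPS+torin1 against LPS, and 7 for the remaining comparisons within or between kinds of mRNA. Over all 11243 genes, the counts with a block were 8223, 7062, 7196 and 5587 in the same order. They were 8266 and 7451 for LPS+torin1 against control in total and polysome-associated mRNA, and 8991 for polysome-associated against total mRNA. The block added Pik3r4 with LPS (adjusted p = 0.216) and Fig4 with LPS+torin1 (adjusted p = 0.227), both on polysomes, and ended no call. In total mRNA the Mcoln2 change from LPS to LPS+torin1 had an adjusted p of 0.00446 with the block.

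The changes of sign were of values that had not passed the test. With 1 experiment left out, Mcoln1 with LPS ran from -0.14 to 0.0240 in total and from -0.0125 to 0.29 in polysome-associated mRNA, Pik3r4 with LPS in total mRNA from -0.0071 to 0.11, Tpcn1 with LPS+torin1 in total mRNA from -0.26 to 0.0040, Pikfyve with LPS+torin1 on polysomes from -0.10 to 0.0508, Mcoln2 between polysome-associated and total mRNA from -0.32 to 0.29, and the translation efficiency with LPS of Vac14 from -0.0079 to 0.13, of Mcoln2 from -0.38 to 0.14 and of Tpcn2 from -0.13 to 0.10. With the block, Mcoln2 and Tpcn2 had a translation efficiency change of -0.15 and 0.0121 with LPS, and Mcoln2 a polysome-to-total difference of 0.0042. DESeq2 gave -0.0056 for Mcoln2. An analysis of partial variance gave -0.49 for Vac14 and 0.0126 for Tpcn2 with LPS, and 0.0843 for Vac14, -0.0324 for Pik3c3 and 0.21 for Mcoln1 with LPS+torin1 against LPS. The cause of these changes was not tested.

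Over all genes, the count called fell at an adjusted p of at most 0.05 to 3654 for LPS on polysomes, 3279 and 1557 for LPS+torin1 against LPS in total and polysome-associated mRNA, and 3950 for LPS+torin1 against control on polysomes. Leaving out an experiment gave 3901 to 7251, 3959 to 5385, 1187 to 5182 and 4156 to 7627 genes in the same order. For translation efficiency the partial variance called 12 genes with LPS and 24 with LPS+torin1 against LPS, none of the 9 members. Requiring 10 counts in every library dropped Mcoln2 from the fits of total mRNA and of all 18 libraries, so these gave no value for it.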

Other observations

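For each of the 9 genes, the 2 genes with the most similar course were sought by Pearson's r of log2 CPM over the 18 libraries, among 8384 genes with a mean of at least 10 CPM. The libraries share treatments and experiments, so these r are descriptions and carry no p. Nearest to Mcoln1 were Mgat4b (r = 0.982), an enzyme of N-glycan branching, and Mgrn1 (r = 0.973), a ubiquitin ligase. In total mRNA Mgat4b went from a mean of 69.1 CPM with LPS to 181 CPM with LPS+torin1, and Mgrn1 from 82.3 to 139 CPM. Nearest to Mcoln2 were Aoah (r = 0.967), which encodes acyloxyacyl hydrolase, the enzyme that inactivates LPS, and Cd200r1 (r = 0.966), an inhibitory receptor of myeloid cells. Aoah had a mean of 1.87 CPM in control, 15.7 CPM with LPS and 17.4 CPM with LPS+torin1, and Cd200r1 8.89, 27.99 and 56.5 CPM. Nearest to Tpcn1 were E2f1 (r = 0.984), a transcription factor of the cell cycle, and Susd3 (r = 0.983). E2f1 fell from a mean of 29.8 CPM in control to 11.1 CPM with LPS and was at 10.5 CPM with LPS+torin1.

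The genes nearest to the others were Twf1 (r = 0.983) and Ccar1 (0.967) for Pikfyve, Rpap1 (0.973) and Lrp5 (0.972) for Vac14, AF251705 (0.964) and Zfp740 (0.955) for Tpcn2, Uevld (0.947) and Fbxo3 (0.942) for Pik3c3, Clasp1 (0.928) and Kif2c (0.926) for Fig4, and 2410089E03Rik (0.921) and Rprd2 (0.918) for Pik3r4.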
